A study of Mus musculus with 4 samples.

Results

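Transcripts of 10 cytokine genes were followed in double-negative regulatory T cells (DNT) of the mouse, αβ T cells without the CD4 and CD8 coreceptors that can suppress other lymphocytes. The genes were Il10, Il24, Il4, Il13, Il5, Il3, Csf2, Il9, Il2 and Il21. They were taken by name as IL-10 and the cytokines of type 2 and related helper T cells, 10 of the 35275 genes in the deposited table. No cut on their values was used, but earlier results of these data were known when the list was chosen. The groups were DNT of wild-type C57BL/6 mice (2 libraries) and DNT of OX40-knockout C57BL/6 mice (2 libraries). OX40, encoded by Tnfrsf4, is a costimulatory receptor of activated T cells. In both groups naive CD4 T cells had been converted to DNT in culture, and cells were then sorted that carried CD3 and TCRαβ but lacked CD4, CD8 and NK markers. The labels do not state the deleted part of the gene, the age or number of the animals, or whether cultures were separate within a group, so the spread between libraries may be technical.

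IL-10 is a secreted cytokine that restrains macrophages, dendritic cells and T cells, and it is made by several kinds of regulatory and effector T cell. IL-4, IL-13 and IL-5 are the cytokines by which type 2 helper T cells direct IgE switching, mucus production and eosinophils. Their genes lie together in one chromosomal cluster under the transcription factor GATA3, while IL-24 belongs to the IL-10 family and its gene lies near Il10. IL-3 and GM-CSF (Csf2) act on myeloid progenitors, IL-9 on mast cells, and IL-2 and IL-21 on lymphocytes.

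The library totals behind the RPKM values (reads scaled to transcript length and to the library total) were 22220888 to 24395743 reads. Tnfrsf4 stood at 18.2 and 12.3 RPKM in wild-type 1 and 2 and at 12.1 and 9.38 RPKM in OX40-knockout 1 and 2, so its transcript was still read in the knockout libraries. The exact 95% Poisson intervals of wild-type 2 (10.9 to 13.9 RPKM) and OX40-knockout 1 (10.6 to 13.8 RPKM) overlapped. The log2 difference of -0.46 (SE 0.23) did not pass (limma adjusted p = 0.975), so the genotypes rest on the labels. The T cell receptor subunit Cd3e was at 248 to 332 RPKM, and Foxp3, which defines conventional regulatory T cells, at 0.093 to 0.144 RPKM. Cd4 was at 10.1 RPKM in OX40-knockout 1, with 0.82 to 2.06 RPKM in the other 3 libraries.

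Of the 10 cytokine genes, 5 had a mean of at least 1 RPKM over the 4 libraries, the minimum for the test, and 5 were near zero by that measure. Ordered by mean level, the first were Il24 (14 RPKM), Il10 (11.6 RPKM), Il4 (8.29 RPKM), Il13 (7.91 RPKM) and Csf2 (4.1 RPKM). The near-zero genes were Il5 (0.833 RPKM), Il21 (0.138 RPKM), Il2 (0.0951 RPKM), Il9 (0.0783 RPKM) and Il3 (0.0652 RPKM). Il5 was thus the member just under the minimum and Csf2 the one just above it. The levels of Il24 and Il10 overlapped between libraries, as did those of Il4 and Il13, so neither order exceeds the spread. All 10 genes together summed to 35.8 and 25.4 RPKM in wild-type 1 and 2 and to 99.4 and 27.8 RPKM in OX40-knockout 1 and 2. The sum of OX40-knockout 1 was far above the others, and that of OX40-knockout 2 lay between the wild-type sums.

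**Figure D1:**
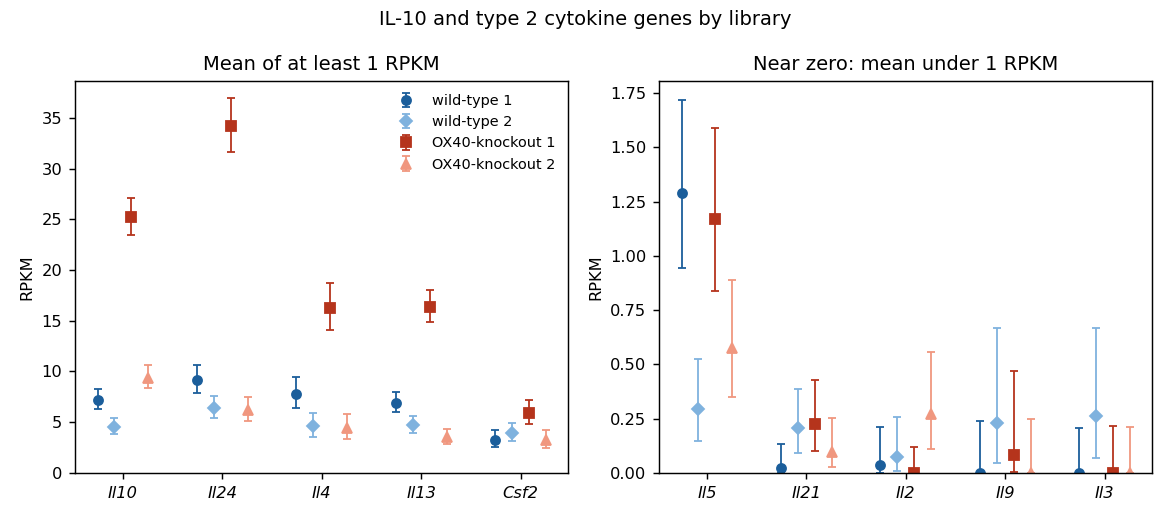
RPKM of the 10 cytokine genes in each library (vertical axis), with exact 95% Poisson intervals of the recovered reads as bars, or, where no read was found, a bar up to the limit of 3 reads; the left panel holds the 5 genes whose mean reached 1 RPKM and the right panel the 5 near zero, on a different scale. OX40-knockout 1 sits highest for each of the 5 genes on the left, at 34.2 RPKM for Il24, and no gene on the right exceeds 1.29 RPKM.

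Il10 was the one tested member whose knockout libraries both lay above both wild-type libraries. Il10 (ENSMUSG00000016529) was at 7.23 RPKM in wild-type 1 (exact 95% Poisson interval 6.31 to 8.26, from 220 reads) and 4.57 RPKM in wild-type 2 (3.86 to 5.37, from 146 reads). In the knockout it was at 25.2 RPKM in OX40-knockout 1 (23.4 to 27.1, from 733 reads) and 9.4 RPKM in OX40-knockout 2 (8.33 to 10.6, from 278 reads). The 4 libraries were ordered without overlap of their counting intervals, and OX40-knockout 1 stood 2.68-fold above OX40-knockout 2. These intervals, and the others below, cover counting error only. Mean levels of wild-type and knockout were 5.9 ± 1.88 and 17.3 ± 11.2 RPKM (SD, n = 2 each). The difference was 1.29 (SE 0.48, 95% interval 0.02 to 2.55) on the scale of log2(RPKM + 1), which understates changes of low genes. It did not pass the limma test over all genes (Benjamini-Hochberg adjusted p = 0.975). Groups did not overlap, with the knockout higher, for 1 of the 5 tested members against 8.66% of all tested genes.

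The difference of Il10 between genotypes was smaller without OX40-knockout 1, at 0.62, and larger without OX40-knockout 2, at 1.95. Without OX40-knockout 2 the differences of Il24, Il13, Il4 and Csf2 were larger too, at 2.02, 1.37, 1.29 and 0.59. For Il10, OX40-knockout 2 alone was 1.59-fold above the mean of the wild-type libraries. Within the replicate numbers of the labels, Il10 was 3.48-fold higher in OX40-knockout 1 than in wild-type 1 and 2.06-fold higher in OX40-knockout 2 than in wild-type 2.

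Il24 encodes another cytokine of the IL-10 family. It was at 9.16 and 6.43 RPKM in wild-type 1 and 2 and at 34.2 and 6.21 RPKM in OX40-knockout 1 and 2. Only OX40-knockout 1 was high, 3.73-fold above the next library, and its counting interval of 31.6 to 36.9 RPKM was clear of the 7.86 to 10.6 RPKM of wild-type 1. OX40-knockout 2 was the lowest of the 4, and its interval of 5.14 to 7.44 RPKM overlapped the 5.38 to 7.62 RPKM of wild-type 2. The group means were 7.79 ± 1.93 and 20.2 ± 19.8 RPKM (SD, n = 2 each), and the log2 difference of 0.87 (SE 0.76) did not pass (limma adjusted p = 0.975). Il24 stood at 1.27 and 1.41 times the RPKM of Il10 in the wild-type libraries, at 1.36 times in OX40-knockout 1 and at 0.66 times in OX40-knockout 2. In OX40-knockout 2, then, Il10 was above Il24, whereas Il24 was the higher in the other 3 libraries.

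Il19 and Il20, the IL-10 family genes that lie between Il24 and Il10 in gene order, were at no more than 0.0959 RPKM for Il19 and listed at 0 in all 4 libraries for Il20. Mapkapk2, a stress-activated kinase gene on the other side of Il10, was at 152 and 148 RPKM in wild-type DNT, compared with 261 and 162 RPKM in knockout DNT. It shared with Il10 its highest value in OX40-knockout 1, with both knockout libraries above both wild-type libraries, and its log2 difference of 0.45 did not pass (limma adjusted p = 0.975).

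Il4 and Il13 are neighbours in the type 2 cytokine cluster and were read at nearly the same level as each other. The bases before their transcription starts are shown beside those of Il5, the third type 2 gene of the cluster, because Il5 was read at a much lower level than the other two. Each run is the 250 bases before the outermost start in the RefSeq table (GRCm38.p6), 5′ to 3′ on the gene's strand. Coordinates are those of RefSeq and do not come from the authors' table. The windows are chr11:53618666-53618915 (minus strand) for Il4, chr11:53634703-53634952 (minus strand) for Il13 and chr11:53720544-53720793 (plus strand) for Il5. Capitals mark every match, on either strand, to the letters AGATAA or TGATAA for GATA factors, GGAAA for NFAT, TGANTCA for AP-1, TTCNNNGAA for STAT proteins, TGCTGA for a MAF half-site and TATAAA for the initiation box.
Il4: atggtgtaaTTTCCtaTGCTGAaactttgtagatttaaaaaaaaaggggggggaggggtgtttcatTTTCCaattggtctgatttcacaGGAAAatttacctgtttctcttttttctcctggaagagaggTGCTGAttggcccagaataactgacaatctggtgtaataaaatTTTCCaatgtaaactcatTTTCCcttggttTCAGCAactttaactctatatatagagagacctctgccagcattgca
Il13: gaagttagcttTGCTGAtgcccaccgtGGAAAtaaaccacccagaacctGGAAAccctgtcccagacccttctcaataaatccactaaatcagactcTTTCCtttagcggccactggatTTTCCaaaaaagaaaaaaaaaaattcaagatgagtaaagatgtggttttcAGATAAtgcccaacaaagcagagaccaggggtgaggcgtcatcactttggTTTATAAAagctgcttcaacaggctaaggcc
Il5: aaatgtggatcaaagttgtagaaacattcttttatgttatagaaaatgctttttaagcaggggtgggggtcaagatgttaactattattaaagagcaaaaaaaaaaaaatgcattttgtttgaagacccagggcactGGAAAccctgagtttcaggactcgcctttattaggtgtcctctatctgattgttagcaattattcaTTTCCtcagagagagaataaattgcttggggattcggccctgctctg

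The Il4 window held 5 matches to the NFAT core and 3 to the MAF half-site, and none to the other motifs. The Il13 window held 4 NFAT matches, 1 MAF half-site, 1 GATA match and 2 overlapping matches to TATAAA on opposite strands. The Il5 window held 2 NFAT matches and no other. RefSeq windows were found for 8 of the 10 genes, all but Il10 and Il24. The NFAT core was in 8 of these 8 windows against 55.6% of 32851 windows of the same length, a GATA match in 3 against 16.6%, a MAF half-site in 4 against 16.1%, TATAAA in 2 against 12.4%, AP-1 in 1 against 6.75% and STAT in 0 against 7.02%. A match is a stretch of letters and was not tested as a bound site. The windows hold none of the enhancers that lie elsewhere in the cluster.

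Il4 was at 7.82 and 4.63 RPKM in wild-type 1 and 2 and at 16.3 and 4.45 RPKM in OX40-knockout 1 and 2, from 103, 64, 205 and 57 reads. OX40-knockout 1 was high, and OX40-knockout 2 and wild-type 2 had overlapping counting intervals of 3.37 to 5.77 and 3.56 to 5.91 RPKM. Il13 was at 6.93 and 4.73 RPKM in wild-type DNT, compared with 16.4 and 3.53 RPKM in knockout DNT, from 194, 139, 440 and 96 reads. Again only OX40-knockout 1 was high, at 2.37-fold the next library for Il13 and 2.08-fold for Il4. The ratio of Il4 to Il13 in RPKM was 1.13, 0.979, 0.99 and 1.26 in wild-type 1 and 2 and OX40-knockout 1 and 2, so the pair kept close to equal levels per length while each varied by several-fold.

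The group means of Il4 were 6.23 ± 2.26 and 10.4 ± 8.36 RPKM in wild-type and knockout, with a log2 difference of 0.46 (SE 0.59), and those of Il13 were 5.83 ± 1.56 and 9.98 ± 9.12 RPKM, with a difference of 0.40 (SE 0.66; SD and n = 2 in each group). Neither passed (limma adjusted p = 0.975 for both). Without OX40-knockout 1 the differences turned to -0.37 for Il4 and -0.57 for Il13, so the direction of both rested on that library.

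Il5 was near zero beside them. It was at 1.29 and 0.293 RPKM in wild-type 1 and 2 and at 1.17 and 0.577 RPKM in OX40-knockout 1 and 2, from 46, 11, 40 and 20 reads. The 2 libraries numbered 1 were the high ones in both genotypes, the groups overlapped, and Il5 was the one type 2 cytokine gene of the 3 whose highest value was not in OX40-knockout 1. Il5 stood at 0.186, 0.062, 0.0713 and 0.163 times Il13 in wild-type 1 and 2 and OX40-knockout 1 and 2. Rad50, the DNA repair gene that lies between Il13 and Il5, was at 39.3, 38.7, 37.6 and 35.9 RPKM in the same order. Its level in OX40-knockout 1 was close to the others, unlike those of Il4 and Il13 on one side of it and of Irf1, an interferon-induced transcription factor gene, beyond Il5. Irf1 was at 188 and 126 RPKM in wild-type DNT, compared with 299 and 126 RPKM in knockout DNT.

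Further along the cluster, Csf2 encodes GM-CSF and was the most even of the expressed members. It was at 3.28 and 3.95 RPKM in wild-type 1 and 2 and at 5.91 and 3.27 RPKM in OX40-knockout 1 and 2, from 61, 77, 105 and 59 reads. OX40-knockout 1 was the highest at 1.5-fold the next library, and its interval of 4.83 to 7.15 RPKM overlapped the 3.11 to 4.93 RPKM of wild-type 2. The means were 3.61 ± 0.467 and 4.59 ± 1.87 RPKM (SD, n = 2 each), with a log2 difference of 0.24 (SE 0.28) that did not pass (limma adjusted p = 0.975) and turned to -0.11 without OX40-knockout 1. Its neighbour Il3 was read only in wild-type 2, at 0.261 RPKM from 4 reads. The other 3 libraries were listed at 0 for Il3, where a count of 0 allows up to 0.205 to 0.215 RPKM (3 reads).

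Among 20 genes that lie beside the members on their chromosomes, 11 were tested, 7 had a higher and 4 a lower knockout mean, and 0 passed, with a median log2 difference of 0.18. OX40-knockout 1 was highest for 8 of the 11, against 36.9% of all tested genes. It was at least 2-fold above the others for 0, against 2.00%. P4ha2, beside Csf2, was at 51.7, 43.9, 77 and 38 RPKM (wild-type 1 and 2, then OX40-knockout 1 and 2), and Sept8, near Il4, at 11.9, 14.5, 25.8 and 13 RPKM. The gene 4932438A13Rik, near Il2, was even, at 46.6 to 52.5 RPKM.

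Il9, Il2 and Il21 were close to the detection limit. Il9, the mast cell growth cytokine, had 3 reads in wild-type 2 and 1 in OX40-knockout 1 (0.229 and 0.084 RPKM) and was listed at 0 in the other 2 libraries, which allows up to 0.241 RPKM in wild-type 1 and 0.248 RPKM in OX40-knockout 2. Il2, the T cell growth factor, had 1 and 2 reads in the wild-type libraries, 0 in OX40-knockout 1 and 7 in OX40-knockout 2, at most 0.271 RPKM. Il21, its neighbour and a cytokine of follicular helper T cells, had 1, 9, 9 and 4 reads in wild-type 1 and 2 and OX40-knockout 1 and 2, at most 0.225 RPKM. None of the 3 had groups that stood apart, and at this depth a genotype difference was not detectable. In contrast, the receptor chains for IL-2 were abundant, with Il2rb at 850 to 1022 RPKM and Il2ra at 208 to 331 RPKM.

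Across the members, 0 of the 5 tested passed an adjusted p under 0.05 in limma, as did 0% of the 11625 genes tested. At an unadjusted limma p under 0.05 there was 1 member, Il10, against 1.39% of the genes tested. The knockout mean was higher for 5 of 5, with a median log2 difference of 0.46 beside -0.03 over all genes tested. OX40-knockout 1 was the highest library for 5 of 5 tested members, against 36.9% of all tested genes. It was at least 2-fold above the highest of the other libraries for 4 of 5 (Il24, Il10, Il13 and Il4), against 2.00% of all tested genes. The members share a chromosomal cluster or a family, so these counts are not of independent genes. Library 1 was also above library 2 within both genotypes for 4 of 5 tested members, all but Csf2, against 23.6% of all tested genes.

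**Figure D2:**
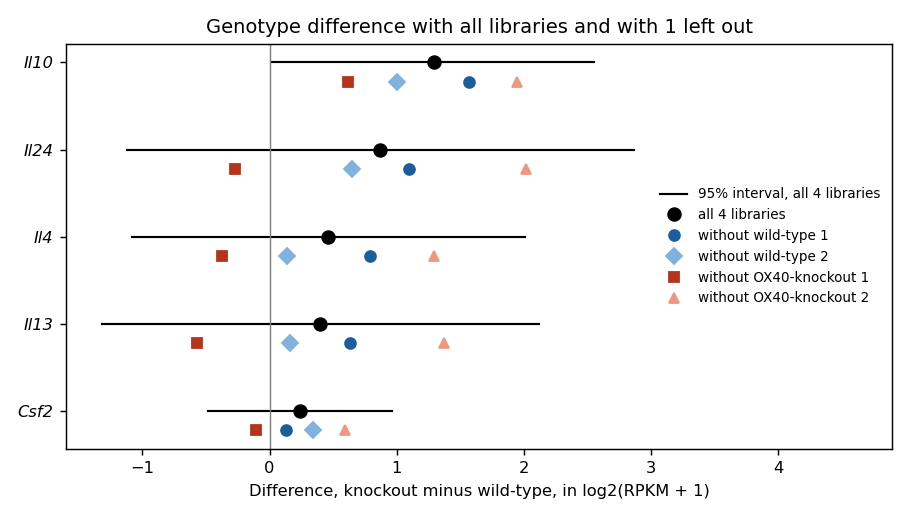
Difference between knockout and wild-type in log2(RPKM + 1) for the 5 tested cytokine genes (horizontal axis), with all 4 libraries (black point and 95% interval from limma) and with each library left out (coloured points). Without OX40-knockout 1 the point of Il10 is at 0.62 and those of Il24, Il4, Il13 and Csf2 lie from -0.57 to -0.11.

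The receptors of these cytokines were compared next. Of 18 receptor chain genes, 13 were tested, 8 had a higher and 5 a lower knockout mean, and 0 passed in either direction, with a median log2 difference of 0.07. OX40-knockout 1 was the highest library for 6 of the 13, against 36.9% of all tested genes. For 0 of the 13 was it at least 2-fold above the others, against 2.00%. Il4ra, the chain shared by the IL-4 and IL-13 receptors, was at 75.4, 74.4, 110 and 67.9 RPKM (wild-type 1 and 2, then OX40-knockout 1 and 2). Il3ra was at 19.6, 21.1, 42.4 and 22.8 RPKM and Il21r at 61.2, 59.7, 79.6 and 65.9 RPKM in the same order, both also highest in OX40-knockout 1 although their ligand genes were near zero. Il2rg, the common gamma chain of the IL-2, IL-4, IL-9 and IL-21 receptors, was even, at 118 to 131 RPKM. Il13ra1, which completes the type II receptor that binds IL-13, was at most 0.0773 RPKM, and Il5ra and Il13ra2 were listed at 0 in all 4 libraries. The IL-10 receptor chains were both read. Il10ra was at 21 and 22.7 RPKM in wild-type DNT, compared with 20.2 and 20.3 RPKM in knockout DNT. Il10rb was at 23.6 and 25.4 RPKM in wild-type DNT, compared with 15.6 and 22.4 RPKM in knockout DNT. Neither passed (limma adjusted p = 0.975 for both). Il20rb, a chain of the IL-24 receptors, was at 3.22 to 4.51 RPKM, while its partners Il20ra and Il22ra1 were at no more than 0.0982 RPKM and listed at 0, respectively. Csf2rb, the signalling chain shared by the IL-3, IL-5 and GM-CSF receptors, was at 5.93 and 4.1 RPKM in the libraries numbered 2 and at 0.443 and 0.453 RPKM in those numbered 1. Its near-identical copy Csf2rb2 was at 6.71 and 4.94 against 0.374 and 0.468 RPKM, and both are uncertain, since the sources used here do not say how reads were divided between the copies. Il10ra, Il10rb, Il13ra1, Il13ra2, Il5ra, Il20ra, Il20rb, Il22ra1, Csf2rb and Csf2rb2 were named after their values were seen, for their place in the receptors of the members.

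Among 29 regulators of IL-10 and type 2 cytokine genes, 27 were tested, 17 had a higher and 10 a lower knockout mean, and 0 passed, with a median log2 difference of 0.15. OX40-knockout 1 was the highest library for 16 of the 27, against 36.9% of all tested genes. Gata3, the lineage factor of type 2 helper cells, was at 66.6 and 54.5 RPKM in wild-type DNT, compared with 135 and 53.8 RPKM in knockout DNT. Maf, which activates Il4 and Il10, was at 11.6, 10.1, 29.7 and 8.29 RPKM in the same order. Gata3 and Maf were the 2 of 27 regulators at least 2-fold above the other libraries in OX40-knockout 1, as Il4 and Il13 were. Of all tested genes, 2.00% were. Stat6, the signal transducer of IL-4, was at 156, 164, 163 and 153 RPKM and Prdm1, a transcription factor linked to IL-10 expression, at 14.2, 16, 14.2 and 21.5 RPKM, neither with a peak in OX40-knockout 1. Gata3, Maf and Prdm1 were named after their values were seen. Batf3, an AP-1 partner, was at 9.98 and 13 RPKM in wild-type DNT, compared with 22.7 and 20.2 RPKM in knockout DNT, higher in both without passing (log2 difference 0.85, SE 0.17, limma adjusted p = 0.975). Junb, another AP-1 subunit and an activator of Il4, was at 194, 184, 345 and 220 RPKM. The other regulators of highest level varied less, with Stat3 at 148 to 198 RPKM, Bhlhe40 at 375 to 461 RPKM, Runx3 at 305 to 385 RPKM and Ikzf1 at 133 to 143 RPKM.

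Of 15 other genes known from type 2 T cells, 9 were tested, 8 had a higher and 1 a lower knockout mean, and 0 passed, with a median log2 difference of 0.54. OX40-knockout 1 was highest for 6 of the 9 tested, against 36.9% of all tested genes. It was at least 2-fold above the others for 4, against 2.00%. This list and the other gene lists compared here were chosen with earlier results of these data known, so these shares are descriptions. Ecm1, a secreted protein of type 2 helper cells, was at 49.3, 38.3, 299 and 43.3 RPKM (wild-type 1 and 2, then OX40-knockout 1 and 2). Il17rb, a chain of the IL-25 receptor, was at 13.5, 8.81, 51.7 and 11.2 RPKM, and the chemokine receptor gene Ccr4 at 4.93, 3.06, 11 and 3.35 RPKM. Crlf2, a chain of the TSLP receptor, was at 57.3, 57.8, 115 and 51.7 RPKM. Il1rl1, the IL-33 receptor, had no such peak, at 3.54, 8.97, 6.78 and 6.89 RPKM, and neither did Tnfsf11, at 13.6, 13.5, 10.6 and 12.8 RPKM. The remaining 6 genes, Ccr3, Ptgdr2, Il31, Areg, Ccl1 and Il25, were under the minimum mean of 1 RPKM.

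**Figure D3:**
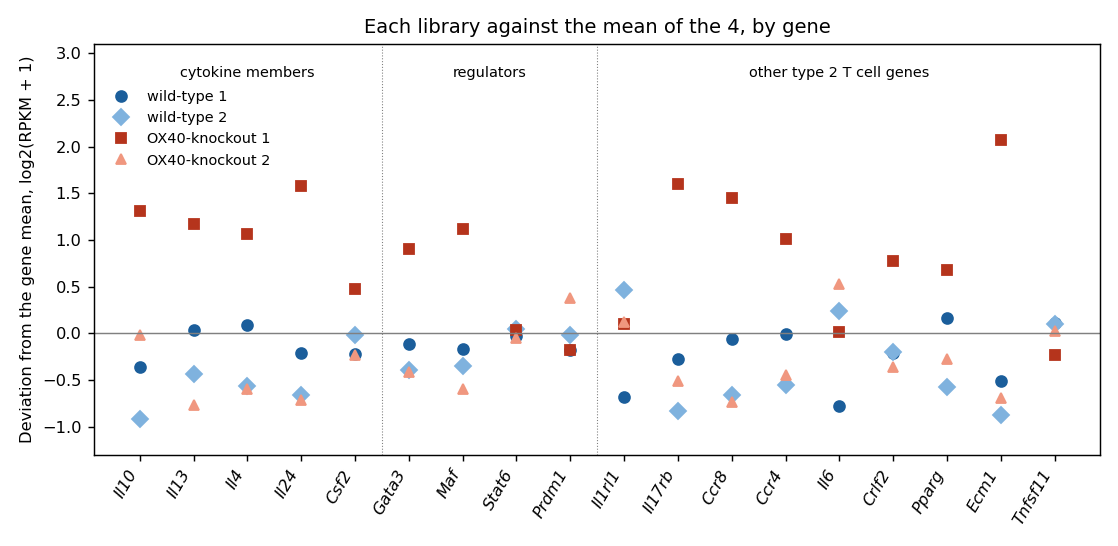
Deviation of each library from the mean of the 4 libraries in log2(RPKM + 1) (vertical axis) for the 5 tested cytokine genes, 4 regulators (Gata3, Maf, Stat6 and Prdm1, picked after their values were seen) and the 9 tested other type 2 T cell genes. OX40-knockout 1 sits highest for the 5 cytokine genes, Gata3, Maf, Il17rb, Ccr8, Ccr4, Crlf2, Pparg and Ecm1, and not for Stat6, Prdm1, Il1rl1, Il6 or Tnfsf11.

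Other IL-10 family and T cell cytokine genes were also highest in OX40-knockout 1, for 7 of 7 tested, against 36.9% of all tested genes. However, 1 of the 7 was at least 2-fold above the other libraries there (Ebi3, named after its values were seen), against 2.00%. Il22, another IL-10 family gene, was at 26.2 and 23.1 RPKM in wild-type DNT, compared with 50.2 and 44.1 RPKM in knockout DNT. For Il22 the knockout libraries were alike, whereas for Il10 they were 2.68-fold apart. Its difference of 0.91 (SE 0.13) did not pass over all genes (limma adjusted p = 0.975), and Il22 has a near-identical copy, Iltifb, which was at no more than 0.348 RPKM. Il17a was at 1.54, 1.89, 4.19 and 2.84 RPKM and Ifng, encoding interferon gamma, at 37.3, 45.2, 60.5 and 56.2 RPKM (wild-type 1 and 2, then OX40-knockout 1 and 2). Tgfb1, which encodes the other widely studied suppressive cytokine, was at 268, 263, 338 and 263 RPKM. Tnf was at 12.9, 15.9, 24.5 and 14.1 RPKM and Lta, encoding lymphotoxin alpha, at 39.1, 31.9, 39.2 and 25.9 RPKM in that order. Of 13 genes in this list 7 were tested, 6 had a higher and 1 a lower knockout mean, and 0 passed, with a median log2 difference of 0.37.

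Genes whose 4 values ran most like those of Il10 and Il13 were taken from the 8614 named genes whose mean reached 5 RPKM, by the distance between their deviations over the 4 libraries. Nearest to Il10 were Klf2 (distance 0.26), Gadd45b (0.27), Chdh (0.43), Irs2 (0.52) and Socs3 (0.53). Klf2, a transcription factor of T cell quiescence and trafficking, was at 6.97, 3.8, 20.3 and 6.91 RPKM (wild-type 1 and 2, then OX40-knockout 1 and 2). Socs3, an inhibitor of STAT3 signals that cytokines induce, was at 35.6, 29.3, 96.6 and 34 RPKM. For Klf2, Gadd45b, Chdh, Irs2 and Socs3 the genotypes overlapped, which they did not for Il10. Nearest to Il13 were Tspan32 (0.13), Coro2b (0.16), Cpd (0.18), Lama5 (0.20) and St6gal1 (0.22), each high in OX40-knockout 1 alone. With 4 libraries, many genes can share an order, and the likeness is a description.

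Markers of other cells that make type 2 cytokines were read beside the members. All 10 markers of mast cells and basophils, which are sources of IL-4 and IL-13 in vivo, had a mean of at least 1 RPKM. They summed to 66.2 and 227 RPKM in wild-type 1 and 2 and to 29.5 and 193 RPKM in OX40-knockout 1 and 2. Of these sums Kit made 51.8, 50.9, 20.4 and 49.6 RPKM in the same order, the larger part in both libraries numbered 1. Fcer1a, Ms4a2, Tpsb2 and Gata2 reached that mean only through the libraries numbered 2. In those numbered 1 they were at 0.0795 to 0.504 RPKM. Mcpt8, the basophil protease gene, was at 5.34, 34.3, 1.42 and 31.9 RPKM, and Cpa3, the mast cell carboxypeptidase gene, at 3.09, 36.7, 2.79 and 35.1 RPKM. The sum was lowest in OX40-knockout 1 and highest in wild-type 2, and both libraries numbered 2 were above both numbered 1. The part of these cells in the cytokine values was not tested. The 5 NK cell markers summed to 552 RPKM in OX40-knockout 1 and to 807 to 939 RPKM in the other 3. Nkg7 made most of that sum in each library. Each of the 5 was lowest in OX40-knockout 1. Apart from Nkg7, each was also lower in both libraries numbered 1 than in both numbered 2, Ncr1 by the largest factor. Eosinophil markers summed to at most 1.37 RPKM, with 0 of 6 at a mean of 1 RPKM.

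Among markers that were highest in the library with the highest members, Cd4 was 4.9-fold above the next library in OX40-knockout 1. In all, 3 of the 6 conventional CD4 T cell markers were highest there (Cd4, Cd40lg and Ccr7), against 36.9% of all tested genes. Tcf7 was at 10.1 RPKM in OX40-knockout 1 and 14.5 to 19.6 RPKM in the others, while the 6 markers together summed to 83.5 RPKM in OX40-knockout 1 and 90.5 to 104 RPKM in the others. The 14 dendritic and myeloid markers summed to 192 RPKM in OX40-knockout 1 and 94 to 114 RPKM in the other 3. Of that sum H2-Ab1 made 163 RPKM, while its partner chain H2-Aa was at 0.661 RPKM and Siglech at 0 in all 4 libraries. B and plasma cell markers summed to 4.85 RPKM against 2.62 to 3.08 RPKM, with Ms4a1 and Pax5 at 0. Of these 6 markers, 2 were highest in OX40-knockout 1. The 2 CD8 T cell markers summed to 21 RPKM in OX40-knockout 1 against 11 to 13.8 RPKM. The 5 markers of conventional regulatory T cells summed to 624 against 423 to 509 RPKM, with 3 of the 5 highest in OX40-knockout 1. Il2ra made 331 RPKM of that sum there, and Foxp3 was at 0.121 RPKM. The 7 general T cell markers summed to 2166 against 1621 to 2123 RPKM, with 2 of the 7 highest in OX40-knockout 1. The 6 markers of group 2 innate lymphoid cells, another source of IL-5 and IL-13, summed to 94.2 to 108 RPKM, with OX40-knockout 1 at 98.1 RPKM. Of the 6, Il7r, Arg1 and Rora were highest in OX40-knockout 1, at 2.29-fold, 2.3-fold and 1.71-fold the next library. Kit, which is also on the mast cell list, was at 20.4 RPKM there against 49.6 to 51.8 RPKM, and Klrg1 at 1.78 against 2.19 to 23.7 RPKM. In bulk RNA a different share of cells and a different level per cell cannot be told apart, and the part of these other markers in the cytokine values was not tested.

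**Figure D4:**
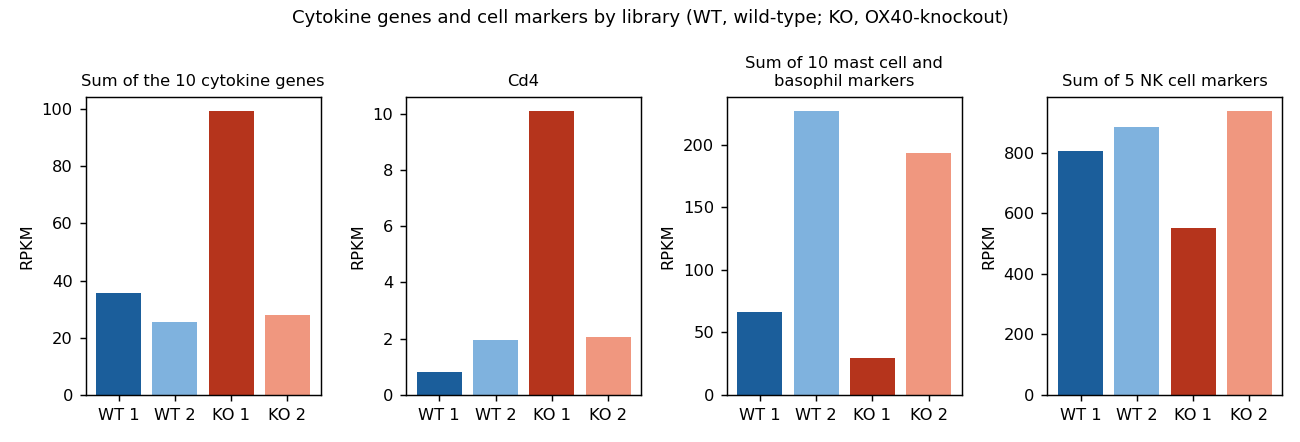
RPKM by library of the sum of the 10 cytokine genes, of Cd4, of the sum of 10 mast cell and basophil markers and of the sum of 5 NK cell markers (bars from 0, 1 per library). The cytokine sum and Cd4 are highest in OX40-knockout 1, at 99.4 and 10.1 RPKM, where the mast cell and basophil sum is lowest, at 29.5 RPKM. Kit makes 20.4 RPKM of that sum. Cd4 is 1 of 6 conventional CD4 T cell markers. Their sum, not drawn, was lowest in OX40-knockout 1, at 83.5 RPKM against 90.5 to 104 RPKM in the others. Nkg7 makes most of the NK cell sum in each library.

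OX40-knockout 1 also differed from the other libraries in a way that followed base composition. Its median deviation from the 4-library mean ran from -0.18 in the fifth of tested genes lowest in transcript GC content to 0.21 in the fifth highest. The tested members lay at 43.1% (Il4), 44.5% (Il10), 44.8% (Csf2), 49.6% (Il24) and 53.4% (Il13) GC. OX40-knockout 2 ran the other way, from 0.05 to -0.10, so the trends partly offset each other in the knockout mean. With the trend of each library removed, the log2 difference between genotypes was 1.40 for Il10, 0.92 for Il24 and 0.57 for Il4. It was 0.39 for Il13 and 0.35 for Csf2. Before, the values were 1.29, 0.87, 0.46, 0.40 and 0.24 in that order. The height of OX40-knockout 1 over the other libraries was not recomputed, and the part of base composition in it was not tested.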

How the data were processed

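RNA sequencing libraries of 2 wild-type and 2 OX40-knockout DNT preparations were used, grouped by the titles. The authors deposited 1 value per gene and library, taken here as RPKM. The table's header names no unit, and RPKM was inferred from the values, as described next. Per the submitters' processing notes, Bowtie 0.12.2 and the build mm8 were used. The sources used here do not state the annotation, the counting tool, the handling of multiple matches or the strand setting, so overlapping and antisense genes cannot be told apart. GENCODE vM21 (GRCm38) named 34490 of 35275 IDs. Low values of single-transcript genes were whole multiples of 1 read, which gave each library's total, and at annotated lengths the reads were whole for 83.8% of 5603 such genes (tolerance 0.02 read). Reads of the 10 members came out whole at lengths of 536 to 1801 bases. Recovered reads over all genes summed to 100.9% to 101.0% of the totals, so some genes are overstated. A count of 0 was given a limit of 3 reads.

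The test was limma 3.58.1 (R 4.3.3), run on log2(RPKM + 1) with a trended empirical Bayes prior. It covered the 11625 genes whose mean reached 1 RPKM, with Benjamini-Hochberg adjustment over all of them, a threshold of 0.05 and no block. The code was tested on simulated data. With 2 libraries a group, the smallest p of a two-sided exact permutation test is 0.333, so that test was not used. The members, context lists and alternatives were chosen with earlier results of these data known. Every member was named, and of each context list up to 6 tested genes of highest mean and those at an unadjusted p under 0.05; other genes (Il19, Il20, Iltifb, Ccr8, Il6, Pparg and those stated in the text) were named after their values were seen. Alternatives were another pseudocount (0.1 RPKM), no filter, TMM, median-of-ratios and quantile scaling, a GC correction over 10 classes, the replicate block, limma-voom on recovered reads, and each library left out. Tables and plots used Python 3.11.15, pandas 2.3.3 and matplotlib 3.10.9. The value of 1 cell marker gene is not reported here.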

Additional observations from a re-analysis of the deposited data

How the results depend on the processing

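The number of genes past the threshold was 0 as reported, 1 with quantile normalization, 5 with the replicate block, 1 with the GC correction and the replicate block, and 0 to 1 with a library left out. No cytokine member was among them, and the cause was not tested. The replicate numbers are not said to pair libraries; deviations of same-numbered libraries from their group means correlated across 11625 genes (r = 0.47), and with the block Il10 differed by 1.29 (SE 0.21, limma adjusted p = 0.217). Of 65 member values under alternatives, 61 kept their direction and their side of the threshold. The 4 that turned were those of Il13, Il4, Il24 and Csf2 without OX40-knockout 1. With a library left out, the log2 difference ranged from -0.57 to 1.37 for Il13, -0.37 to 1.29 for Il4, -0.27 to 2.02 for Il24, -0.11 to 0.59 for Csf2 and 0.62 to 1.95 for Il10. Under the other 9 alternatives it was 1.29 to 1.42 for Il10 (limma adjusted p 0.217 to 1), 0.87 to 0.92 for Il24, 0.46 to 0.57 for Il4, 0.39 to 0.43 for Il13 and 0.24 to 0.35 for Csf2. A fit that leaves 1 library in a group assumes that it varies as the other group does. Depth limits Il3, Il9, Il2 and Il21, which had 4 to 23 reads in all. Without the filter their log2 differences were -0.17 to 0.10, and that of Il5 0.10.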
